A study of Caligus rogercresseyi with 6 samples.

Results

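Adult females and adult males of the sea louse Caligus rogercresseyi were compared by RNA-seq of whole animals, with 1 library per sex. These are 2 of the 6 samples of the study, and they were taken by their labels alone. Both libraries are labelled wild type, adult and whole body, and no treatment is given. Each was made from RNA of pooled animals collected from farmed Atlantic salmon, and the number of animals in a pool is not given in the sources used here. Eggs, the copepodid (a swimming larva that finds the host), the chalimus (a larva fixed to the host) and a further adult sample of unstated sex made up the other libraries. That last file was kept out of every comparison, because its total equals the female and male totals added together, with a difference of 0 counts. The comparison covered the 21543 of 44089 transcript contigs (assembled transcript sequences) that had 50 or more counts in either sex. Of the rest, 8071 had 1 to 49 counts in the higher sex and 14475 had 0 counts in both sexes. Just inside this limit were 55 contigs with exactly 50 counts in the higher sex, at a median of 0.384 CPM (a contig's counts scaled to the library total). Just outside it were 57 contigs with 49 counts, at 0.376 CPM.

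Caligus rogercresseyi is an ectoparasitic copepod that lives on the skin of salmonid fish and feeds on mucus and skin. After the last moult the sexes differ in body form and in reproductive tissue. The adult female fills eggs with yolk and carries them in paired strings, and the adult male makes sperm and passes it to the female in spermatophores. Whole-animal RNA therefore mixes ovary or testis with cuticle, gut and muscle. In such a mixture, fewer cells of one type and less RNA per cell cannot be told apart. No file used here pairs the contig identifiers with gene names or sequences. No contig is therefore given a gene, a role or a sequence, and the sex on the labels could not be checked against known yolk or testis transcripts.

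The female library held 149426248 counts and the male library 130218357. Where the table lists 0, up to 3 counts are allowed, which is 0.0201 CPM for the female library and 0.0230 CPM for the male one. Adult female had counts for 28318 contigs and adult male for 28658. With 1 library per sex there was no test, no p-value and no spread between pools. A contig is called higher in one sex if the sexes differed 4-fold or more and that sex had 50 counts or more. Intervals are 95% exact (Clopper-Pearson) counting intervals of a ratio of counts. Intervals and limits for 0 counts cover counting error only, and the difference between pools of the same sex is unknown.

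Both sexes had contigs that were abundant in one library and nearly empty in the other, and the most extreme of these at high abundance were female. Ranked by deposited FPKM, which corrects for contig length, the leading contig higher in adult female was GAZX01022905, 917 nt long. It had 1053520 female and 60 male counts, or 7683 FPKM in adult female against 0.502 FPKM in adult male. Its fold was 13820 with scaling by trimmed mean of M-values (TMM; interval 10736 to 18110) and 15302 with scaling by library totals. Its counts were 354894 in egg, 3034 in copepodid and 99823 in chalimus, so it was high in egg and lowest in adult male among the 5 independent libraries. The next, GAZX01008936, was 5872 nt long and had 6559259 female and 4503 male counts. Its FPKM was 7470 in adult female against 5.89 in adult male, a 1146-fold difference with TMM (interval 1113 to 1181) and 1269-fold with library totals. In contrast to the first contig it was almost uncounted in egg (362 counts) and copepodid (310 counts), and it reached 463487 counts in chalimus.

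The leading contig higher in adult male was GAZX01028117, 838 nt long. It had 1175 female and 876047 male counts, or 9.38 FPKM in adult female against 8025 FPKM in adult male. The male level was 947-fold the female level with TMM (interval 895 to 1004) and 856-fold with library totals. This contig had 1502 counts in egg, 119638 in copepodid and 277009 in chalimus, so both larvae stood between the sexes and egg was close to adult female. The next, GAZX01029585 (899 nt), had 23594 female and 850228 male counts. Its FPKM was 176 in adult female against 7260 in adult male. The male level was 45.8-fold the female level with TMM (interval 45.2 to 46.4) and 41.4-fold with library totals. It was counted in every library, with 124976 counts in egg, 73143 in copepodid and 351704 in chalimus.

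**Figure D1:**
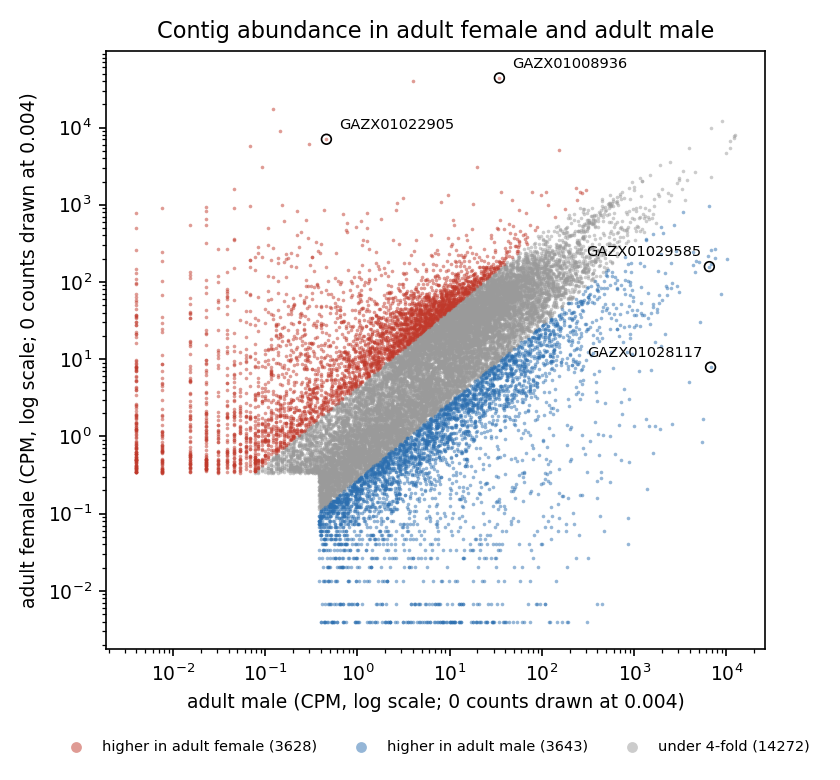
CPM in adult female (vertical axis) against adult male (horizontal axis), both on log scales, for the 21543 contigs compared; each point is 1 contig in 1 library per sex. The 3628 contigs higher in adult female lie above the grey band and the 3643 higher in adult male below it, and the 4 circled contigs are those with the highest FPKM on each side.

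The 10 contigs with the highest FPKM on each side differed in how empty the other sex was. Among the 10 higher in adult female, 8 stood at 1000-fold or more over adult male, with a median fold of 16006 (TMM). Among the 10 higher in adult male, 1 stood at 1000-fold or more, 8 were under 100-fold, and the median fold was 35.9. The female-side contigs ranged from 2144 to 7683 FPKM in adult female and from 0.0360 to 66.1 FPKM in adult male, and 7 of the 10 were below 1 FPKM in adult male. The male-side contigs ranged from 0.997 to 608 FPKM in adult female and from 4079 to 8025 FPKM in adult male, and 1 of the 10 was below 1 FPKM in adult female. The most extreme of these 20 was a female-side contig of 2844 nt with 2583815 female and 16 male counts, a 127102-fold difference (interval 78268 to 222367). The most extreme on the male side was an 852 nt contig with 127 female and 700212 male counts, where the male level was 7005-fold the female level (5887 to 8403).

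In the earlier stages the same contigs were alike in one respect and apart in others. By FPKM, 9 of the 10 female-side and 10 of the 10 male-side contigs were higher in chalimus than in egg. No share over all contigs was computed for this or the other counts out of 10, so they describe these contigs only. The female side as a whole went the other way, with a median log2 ratio of chalimus over egg of -0.53 over 3271 contigs (TMM). All 10 female-side contigs lay between the sexes in chalimus, at 158 to 935 FPKM. Of the 10, 4 were below 1 FPKM in both egg and copepodid. The male-side contigs were well counted throughout, at 14.8 to 1812 FPKM in egg, 1027 to 8696 in copepodid and 1707 to 6618 in chalimus. None of the 10 (0) was below 1 FPKM in both egg and copepodid, and 8 of the 10 lay between the sexes in chalimus. The 10 of each side thus differed in level. Most of the female-side 10 were near zero in adult male, and the male-side 10 were abundant in both larvae.

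**Figure D2:**
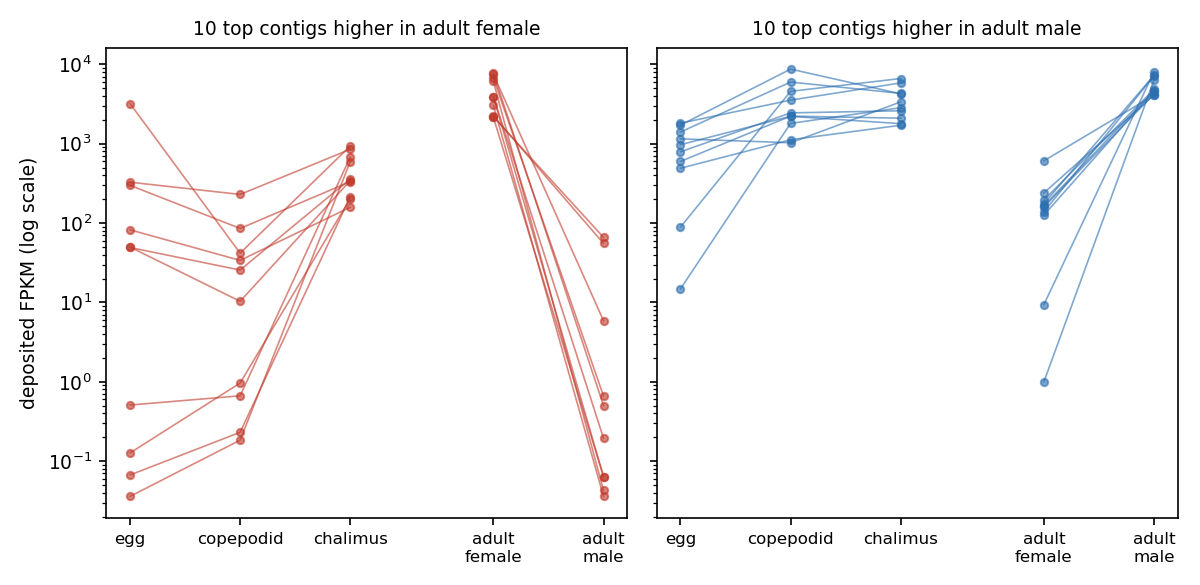
Deposited FPKM (log scale) in egg, copepodid, chalimus, adult female and adult male for the 10 contigs with the highest FPKM among those higher in adult female (left) and among those higher in adult male (right); each line is 1 contig and each point 1 library. The female-side contigs span 0.0360 to 66.1 FPKM in adult male, and the male-side contigs stay at 1027 FPKM or above in copepodid and 1707 or above in chalimus.

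Most contigs differed by less than 4-fold between the sexes. With TMM, 14272 of the 21543 contigs (66.2%) passed the 4-fold rule on neither side, 3628 (16.8%) were higher in adult female and 3643 (16.9%) were higher in adult male. With library totals, the female side held 4043 (18.8%) and the male side 3313 (15.4%). Between the scalings the log2 ratio of well-counted contigs differed by 0.15, and the contigs added or lost lie at the 4-fold limit. All 3628 contigs higher in adult female with TMM were also called with totals, and 415 more were added. Of the 3643 higher in adult male with TMM, 3313 were also called with totals and 330 were not. The median log2 ratio of female over male was 0.02 with TMM and 0.16 with totals. Its middle 50% ran from -1.40 to 1.42 with TMM, so the distribution was close to symmetric on that scaling. TMM places a trimmed mean of these ratios near 0, so the position of the centre was largely set by the scaling.

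The bands of fold were close to even with TMM, but up to 1000-fold they leaned toward adult female with library totals. Other scalings leaned the other way over all contigs called. DESeq2 size factors gave 3246 higher in adult female and 4068 in adult male, and upper-quartile factors gave 3068 and 4254. With TMM, between 4-fold and 20-fold there were 2606 contigs toward adult female and 2652 toward adult male. Between 20-fold and 100-fold there were 564 toward adult female and 535 toward adult male, and between 100-fold and 1000-fold 320 toward adult female and 287 toward adult male. At 1000-fold or more there were 138 toward adult female and 169 toward adult male. With library totals the same 4 bands held 2967, 594, 340 and 142 contigs toward adult female, against 2386, 488, 277 and 162 toward adult male. With TMM, the 138 female contigs held 15.8% of the female library, and the 169 male contigs held 3.83% of the male library. Contigs with 0 counts in the other sex lie in the upper bands, where their fitted ratio depends on the 0.5 counts added. With 3 counts in place of every 0, there were 116 contigs toward adult female and 134 toward adult male at 1000-fold or more.

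**Figure D3:**
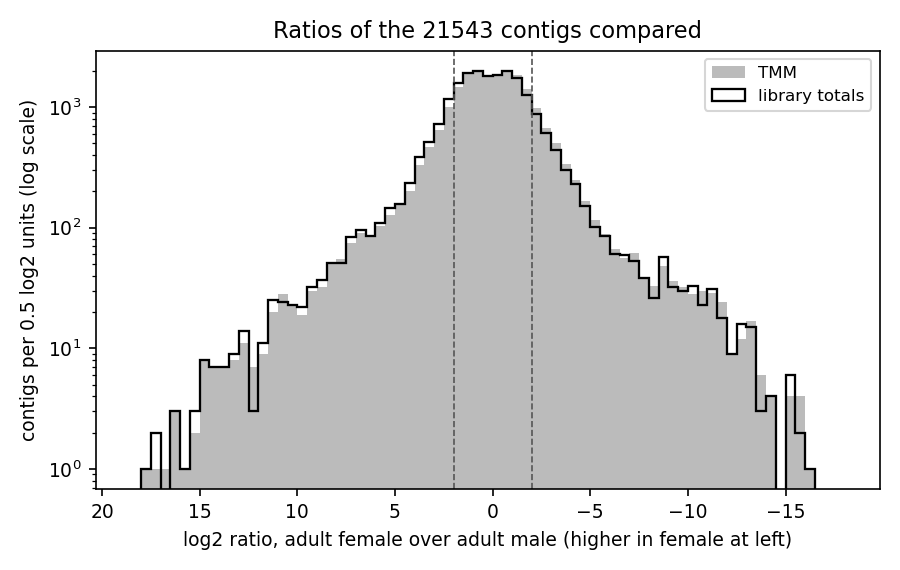
Number of contigs (log scale) by log2 ratio of adult female over adult male in steps of 0.5, with female-higher contigs at the left; the grey area uses TMM and the black line library totals, and the dashed lines mark 4-fold. Both shapes are nearly symmetric, and the 2 scalings differ by a sideways shift of 0.15.

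The sides were spread differently over abundance. Among the 98 contigs with a mean of 1000 CPM or more over the sexes, 10 were higher in adult female (10.2%) and 38 in adult male (38.8%). Between 100 and 1000 CPM, 12.1% of 1509 contigs were higher in adult female and 18.8% in adult male. Only among the 8298 contigs between 10 and 100 CPM was the order reversed with TMM, with 1603 higher in adult female (19.3%) and 1005 in adult male (12.1%). Between 1 and 10 CPM, 15.0% of 7406 contigs were higher in adult female and 19.4% in adult male. Below 1 CPM there were 724 higher in adult female and 877 in adult male among 4232 contigs. The order within each of these 5 bands was the same with library totals, except below 1 CPM, where 18.5% were higher in adult female and 18.2% in adult male. By FPKM, 13 of the 50 leading contigs in adult female were higher there than in adult male, and 28 of the 50 leading contigs in adult male were higher there than in adult female. The remaining 37 and 22 passed on neither side, and 19 contigs were on both lists of 50.

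The reads of each library were concentrated to a different degree. Of the female library, 32.5% lay in contigs higher in adult female, and these took 1.67% of the male library. Of the male library, 38.8% lay in contigs higher in adult male, and these took 2.70% of the female library. The single most abundant female-side contig held 4.39% of the female library, the top 3 held 10.2% and the top 7 held 13.0%. The matching male-side figures were 1.02%, 2.64% and 5.42% of the male library. At 50 contigs the sides met, with 18.1% of the female library and 18.3% of the male library, and at 500 contigs the male side was ahead, with 26.1% of the female and 33.9% of the male library. The female-side counts were thus held by fewer contigs, since 27 contigs supplied 50% of them, against 58 contigs for the male side. These shares used TMM. Their widest Wilson 95% interval was 0.0084 percentage points on either side, which covers counting error only. The scaling moved them by far more. The 32.5% on the female side was 34.1% with library totals and 29.8% with upper-quartile factors. The 38.8% on the male side was 37.2% and 40.8% with the same scalings.

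Some contigs were counted in one sex alone. There were 143 contigs with 50 or more female counts and 0 male counts, and 129 with 0 female counts and 50 or more male counts. The female set had a median of 184 counts, a maximum of 118459 and 41 contigs with 1000 counts or more. The male set had a median of 889 counts, a maximum of 40083 and 61 contigs with 1000 counts or more. With 3 counts taken for the 0 and the lowest of 4 scalings, the most abundant contig of the female set was at least 26239-fold higher than in adult male. That of the male set was at least 15332-fold higher than in adult female. Both sets were short, with medians of 724 nt for the female set and 746 nt for the male set, against 1535 nt for all contigs compared. They made up small parts of the reads, at 0.309% of the female library and 0.261% of the male library.

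The sets with 0 counts in the other sex differed in where else they were counted. Of the 143 female contigs, 59 had 50 or more counts in egg (41.3%), 36 in copepodid (25.2%) and 42 in chalimus (29.4%). Of the 129 male contigs, 1 had 50 or more counts in egg (0.775%), 5 in copepodid (3.88%) and 110 in chalimus (85.3%). Among the 129 are 15 contigs from a single run of 16 consecutive identifiers, described below, all with 50 or more counts in chalimus. They may be pieces of the same transcript, which was not tested, so the 129 are not counted as separate genes. Over all contigs compared the shares were 87.3% in egg, 69.0% in copepodid and 92.4% in chalimus, so the male set was near the background in chalimus and far below it in egg and copepodid, and the female set was below it in all 3. A listed 0 was found for 8 contigs of the female set in egg (5.59%), 90 in copepodid (62.9%) and 27 in chalimus (18.9%). In the male set it was found for 85 in egg (65.9%), 123 in copepodid (95.3%) and 0 in chalimus, against 1.28%, 16.8% and 0.241% of all contigs compared. The absence of a 0 in chalimus is thus what most contigs show. Only 2 contigs of the female set and 0 of the male set had 0 counts in egg, copepodid and chalimus together. Part of each set had another count in the adult file of unstated sex, about as often as the other contigs. Because its total equals that of the sexes together, this file is called the pooled recount. The labels do not state how it was made. Its count differed from the sum of the sexes by over 1% in 51 of the 143 female contigs (35.7%) and 56 of the 129 male contigs (43.4%). The share was 39.7% over all contigs compared, and 1 male contig had at least 50% fewer counts there.

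Egg, copepodid and chalimus were not used to choose the sex-higher contigs, so a comparison among these stages is a separate measurement. By their medians, contigs higher in adult male stood above egg in chalimus, and contigs higher in adult female stood below it. The median log2 ratio of chalimus over egg was -0.53 over the 3271 contigs higher in adult female with 50 or more counts in either stage, and 1.73 over the 3413 higher in adult male. It was 0.02 over all 20616 contigs compared between the sexes that met the same limit. By the 4-fold rule, 385 of the contigs higher in adult female (11.8%) were higher in chalimus than in egg and 550 (16.8%) were lower. Of the contigs higher in adult male, 1535 (45.0%) were higher in chalimus than in egg and 81 (2.37%) were lower. Over all 20616, 16.0% were higher and 6.84% lower. With library totals the medians were -0.78 for contigs higher in adult female, 1.49 for contigs higher in adult male and -0.22 over all. Each stage is 1 library, and the sex of the chalimi is not given in the labels.

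On the male side this relation grew with the size of the difference between the sexes, and on the female side it changed course. Toward adult male, the share of contigs 4-fold or more above egg in chalimus was 12.3% under 2-fold, 32.5% between 4-fold and 20-fold and 62.9% between 20-fold and 100-fold. Between 100-fold and 1000-fold it was 96.2%, and at 1000-fold or more it was 168 of 168 contigs. A contig entered these shares with 50 or more counts in chalimus or egg. Between 100-fold and 1000-fold, 90.6% of the male-side contigs had 50 or more counts in chalimus and 23.7% in egg. At 1000-fold or more the figures were 99.4% and 11.2%. Most of these contigs thus entered through chalimus, and that limit itself favoured a share near 100%. Toward adult female, contigs lower in chalimus than in egg outnumbered those higher between 4-fold and 20-fold, at 358 lower against 112 higher. They did so by less between 20-fold and 100-fold, at 113 lower against 101 higher. From 100-fold to 1000-fold the order was reversed, with 99 higher and 60 lower, and at 1000-fold or more there were 73 higher and 19 lower. The median log2 ratio of chalimus over egg was -0.68 in the 4-fold to 20-fold female band and 2.27 in the band of 1000-fold or more. On the male side it was 1.24 and 9.41 in the same bands. The last value was 8.49 with 3 counts in place of every 0, since 73 of the 168 had 0 counts in egg. With library totals, the share higher in chalimus at 1000-fold or more was 51.9% on the female side and 100% on the male side.

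**Figure D4:**
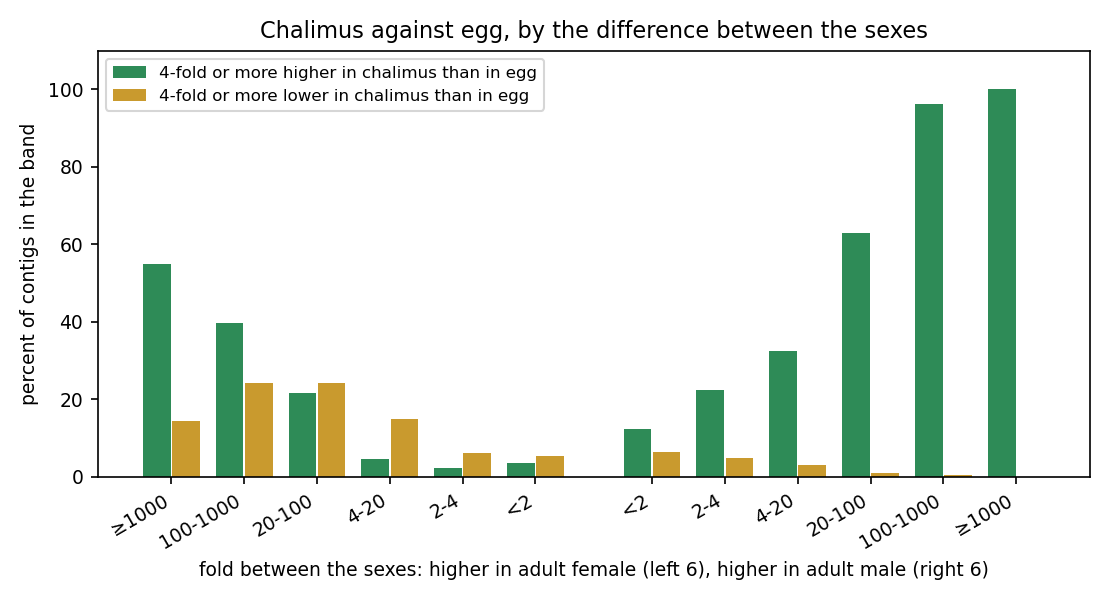
Percent of contigs at least 4-fold higher (green) or lower (ochre) in chalimus than in egg, by the fold between the sexes, for contigs toward adult female (left 6 bands) and toward adult male (right 6 bands); bands hold 133 to 3755 contigs, and every stage and sex is 1 library. The green bars rise to 100% at the far right, and on the female side they overtake the ochre bars only from 100-fold upward. In the far right band 99.4% of contigs had 50 or more counts in chalimus and 11.2% in egg.

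Copepodid, the larva before settlement, gave a like order. The median log2 ratio of copepodid over egg was -1.33 for contigs higher in adult female and 0.78 for contigs higher in adult male, against -0.45 over all contigs compared. With library totals these values were -2.30, -0.20 and -1.42, so their order was kept, while the sign of the male-side value changed. Many of the contigs toward adult male at 1000-fold or more were at 0 before settlement, while a few were abundant there. Of these 169 contigs, 73 had 0 counts in egg (43.2%) and 142 in copepodid (84.0%), against 1.28% and 16.8% of all contigs compared. None (0) was at 0 in chalimus, where 0.241% of all were. Together the 169 held 0.0580% of the egg library, 1.90% of the copepodid library and 2.69% of the chalimus library, and the 852 nt contig described above had 308272 counts in copepodid. The copepodid FPKM were scaled by a total 1.09% above the sum of its table, so a 0 there means only that the table lists 0.

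When each contig was set against its own sex with TMM, the sides differed in how many were low at every earlier stage. Of the 3628 contigs higher in adult female, 932 (25.7%) were more than 4-fold lower in egg, copepodid and chalimus alike, and these 932 held 20.7% of the female library. Of the 3643 higher in adult male, 371 (10.2%) were more than 4-fold lower in all 3, and these held 6.79% of the male library. Over all contigs with 50 or more counts in the sex concerned, the shares were 5.32% for adult female and 2.65% for adult male. Of the contigs higher in adult female, 519 (14.3%) were near or above the female level in egg but lower in copepodid and chalimus, against 27 (0.741%) on the male side. Over all contigs the shares already differed, at 3.06% for adult female and 0.312% for adult male. The adult level was approached in chalimus alone by 259 contigs (7.14%) on the female side and 998 (27.4%) on the male side. The shares over all contigs were 6.31% for adult female, near the female-side value, and 10.8% for adult male. These ratios share the adult libraries that chose the contigs, so their sizes are a description. They were not repeated with library totals. TMM took the copepodid library as 52156477 counts against a total of 78380827, so the copepodid ratios depend on the scaling.

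Contigs with neighbouring identifiers often went the same way. The files number the contigs consecutively, and this order was not used in choosing them. There were 2800 pairs of consecutive identifiers in which both contigs differed between the sexes, and 2260 of them (80.7%) went in the same direction. At a distance of 2 identifiers the share was 71.5%, at 5 it was 61.0%, at 20 it was 49.9% and at 1000 it was 48.9%. Among contigs next to one higher in adult female, 37.0% were also higher in adult female, against 16.8% of all contigs compared. Among contigs next to one higher in adult male, 45.5% were also higher in adult male, against 16.9% of all. Limited to contigs whose count changed by at most 1% on pooled recounting, a restriction chosen after seeing the data, the same-direction share of consecutive pairs was 75.9%. Neighbours may be variants or pieces of 1 transcript, which was not tested, and they are not counted here as separate genes.

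**Figure D5:**
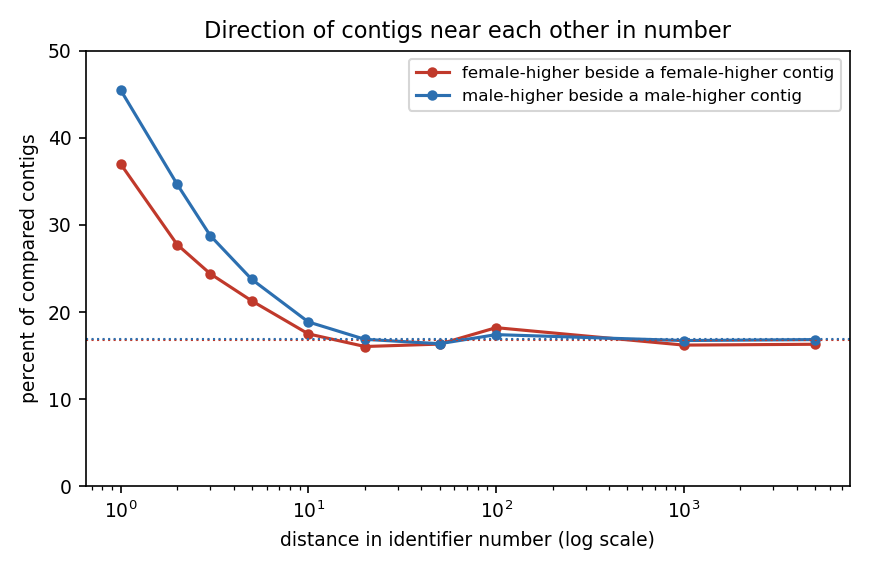
Percent of compared contigs that were higher in adult female at a given identifier distance from another female-higher contig (red), and the same for adult male (blue); the distance axis is logarithmic and dotted lines give the percent over all contigs, 16.8 and 16.9. Both curves start high, at 37.0% for adult female and 45.5% for adult male, and reach the dotted lines at a distance of 20.

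Some of these neighbours formed long runs. Of the contigs higher in adult female, 1668 (46.0%) lay in an unbroken run of 2 or more, with 36 runs of 5 or more. Of those higher in adult male, 1910 (52.4%) lay in such a run, with 62 runs of 5 or more. No background for runs was computed, so these shares are a description. The longest female run held 13 contigs of 833 to 3526 nt, with 384 to 11228 female counts and 1 to 346 male counts each. The longest male run held 16 contigs of 646 to 1459 nt. In adult female 15 of these 16 had 0 counts and the remaining contig had 4, while in adult male they had 309 to 3896 counts each. The same 16 contigs had 205 to 891 counts each in chalimus but 9 counts in all in egg and 2 in all in copepodid. Another male run, of 6 contigs, was far more abundant, with 0.0718% of the female library and 1.87% of the male library. Its members were 18.9-fold to 31.8-fold the female level in adult male and were counted in all 5 libraries, with 1.51% of the chalimus library. Members of 458 nt and 237 nt are also among the 10 male-side contigs with the highest FPKM described above. Whether they are pieces of 1 transcript was not tested.

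Contig length differed between the sides. The median was 1510 nt for contigs higher in adult female, 1261 nt for those higher in adult male and 1627 nt for contigs that passed on neither side. Under 500 nt, 18.3% of 1009 contigs were higher in adult female and 26.4% in adult male. Between 2000 and 4000 nt, 16.9% of 6052 were higher in adult female and 12.4% in adult male. Other bands were closer. The shares were 17.6% and 16.6% between 1000 and 2000 nt, and 11.8% and 11.3% at 4000 nt or more. Between 500 and 1000 nt they were 16.8% and 22.8%. These shares used TMM, and the order within each length band was the same with library totals. Contigs at 1000-fold or more were shorter on both sides, with a median of 1232 nt toward adult female and 899 nt toward adult male. Contigs whose count differed in the pooled recount were about equally common on both sides. The pooled recount differed by over 1% in 36.7% of the contigs higher in adult female, 40.7% of those higher in adult male and 40.3% of the rest. Of the 4 named contigs, 3 matched the sum of the sexes exactly and GAZX01028117 differed by -51 counts.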

How the data were processed

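RNA of pooled whole animals was made into libraries by standard Illumina procedures, per the labels' protocols. For the assembly, the alignment and the counting, the tools are not given in the sources used. The counts deposited by the authors are raw whole numbers per contig, as their unequal totals show. The deposited FPKM, with 3 decimals, were divided by the authors by contig length and a library total. Contig lengths were recovered from counts and FPKM. For each library, the total behind the FPKM was first fitted so that lengths came out close to whole numbers. With the fitted totals, lengths were within 0.05 nt of whole numbers for all contigs above 300 FPKM. How reads that match several contigs were counted is not given, so counting intervals may be too narrow.

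Ratios used counts with 0.5 counts added per library, scaled to its size, with TMM factors over the 5 independent libraries (edgeR 4.0.16, R 4.3.3) or with library totals. DESeq2 1.42.0 size factors and edgeR upper-quartile factors were alternatives. With 1 library per group, the size rule of 4-fold and 50 counts stood in for a test. Shares used Wilson intervals and ratios Clopper-Pearson intervals (scipy 1.17.1). The computation was tested on simulated data. Contigs named by identifier were the 2 per side with the highest FPKM in that sex among those passing with both scalings. Gene lists were not applied, since identifiers carry no gene names here. The comparison, rules and alternatives were chosen with earlier results of these data known.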

Additional observations from a re-analysis of the deposited data

Results flagged for a closer look

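In the adult file of unstated sex, which entered no comparison, 2 contigs had over 3 counts although both sexes had 0 counts, with at most 7 counts. This is above the limit of 3 counts used here for a listed 0, among 14475 contigs with 0 counts in both sexes. That limit is for counting error and would not apply if this file recounts the same reads, which the labels do not state. The totals of that file and of the sexes together are equal, with a difference of 0 counts, and 43.3% of the contigs compared held exactly the sum.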

How the results depend on the processing

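The balance between the sides followed the scaling. Contigs higher in adult female made up 49.9% of those that differed with TMM, 55.0% with library totals, 44.4% with DESeq2 size factors and 41.9% with upper-quartile factors, and the median log2 ratio of female over male was 0.02, 0.16, -0.15 and -0.23. The larger side is therefore not settled. This share was 48.2% at a minimum of 10 counts, 51.7% at 200, 46.5% with no filter and 51.5% with a recount within 1%. TMM over the sexes alone or over all 6 files gave the same values. By construction the numbers moved with the fold, to 7001 in adult female and 6899 in adult male at 2-fold, and to 1966 and 2002 at 8-fold. Leaving out contigs whose pooled recount differed by over 1% left 2298 higher in adult female and 2160 higher in adult male. Contigs with 0 counts in the other sex numbered 354 in adult female and 292 in adult male at a minimum of 10 counts, and 68 and 98 at 200, where the larger set was male. With up to 3 counts allowed they numbered 371 and 281, and with a recount within 1% 92 and 73. Pairs of neighbours went the same way in 82.2% at 200 counts and 75.9% with a recount within 1%, the last chosen after seeing the data, and the cause was not tested. For the 4 named contigs a change of direction was not possible under these alternatives, which leave their ratios as they are or shift them by far less than their size. No paired analysis was possible because each group has 1 library. For the same reason no replicate could be left out. Depth does not limit the abundant contigs, whereas near 50 counts a 0 in the other sex still allows 3 counts.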
